A study of Homo sapiens with 6 samples.

Results

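The transcriptome described here is the control state of Huh7, an established human hepatocellular carcinoma cell line, in the 3 libraries labelled FLAG, out of 6 in the series. The libraries were chosen by that label alone, and all 37822 gene rows of their 3 columns were used. The series holds a second group of 3 libraries, from cells given a lentivirus for VPS72, which is not described here. In the FLAG group the genotype was labelled WT, and the cells were exposed for 24 h to a lentivirus packaged in HEK293T cells. What the FLAG construct encodes beyond its name, whether infected cells were selected, and the time from infection to harvest were not given in the sources used here. Cells were grown in Dulbecco's modified Eagle medium with fetal bovine serum, and total RNA, taken up in RNAzol, was turned into libraries by a KAPA RNA HyperPrep kit. Nothing in the labels says that the 3 replicates came from separate cultures, so the spread between them may be technical.

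Hepatocytes secrete most plasma proteins, including albumin, the apolipoproteins, the clotting factors and complement, and they run the urea cycle, glucose output, bile acid synthesis and drug oxidation. A small set of transcription factors, among them HNF4A, the FOXA proteins and CEBPA, drives these genes in the adult organ. Liver tumours and lines derived from them often keep the secretory programme of the fetal liver, marked by alpha-fetoprotein (AFP), while adult enzymes are reduced to varying degrees. A bulk level does not separate fewer cells with a transcript from less transcript per cell.

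Total counts were 21345279 to 25352335 per library, and scaling factors by the trimmed mean of M values (TMM) were 0.995 to 1.00. A gene was called present at 1 CPM or more (counts per 1000000 counts of the column) in each of 3 libraries, silent at 3 counts or fewer in each (0.118 to 0.141 CPM), and in trace between. Silent therefore means not detectable at this depth, and a count of 0 allows a level up to the same floor of 3 counts. These limits cover counting error only. Of 37822 rows 12341 were present (32.6%), 5672 in trace (15%) and 19809 silent (52.4%). Of 19234 nuclear protein-coding genes 11334 were present (58.9%), 2649 in trace (13.8%) and 5251 silent (27.3%), with a median of 6.59 CPM. These shares are the background for the lists.

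The label of a hepatocyte-derived line was checked against 4 markers, and all 4 were high in every library. AFP, the main plasma protein of the fetal liver, stood at 4565, 4564 and 4399 CPM in replicates 1, 2 and 3. ALB (albumin) stood at 3239, 3319 and 3259 CPM, APOB, the structural protein of very low density lipoprotein, at 8431, 8624 and 8098 CPM, and SERPINA1 (alpha-1-antitrypsin) at 808, 817 and 792 CPM. Markers of blood and vessel cells were mostly near the detection limit, while some of bile duct, stromal and packaging cells were not. Of 7 bile duct markers 4 were present and the list summed to 246 to 266 CPM, of which KRT19 held 187 ± 9.34 and SOX9 54.5 ± 0.526, with EPCAM at 11 ± 0.806 CPM and KRT7 silent. Of 14 immune markers 2 were present, LYZ at 11.1 ± 1.17 and CD3D at 2.44 ± 0.358 CPM (mean ± SD, n = 3 libraries, as throughout), while PTPRC, the common leukocyte antigen, had 0, 1 and 0 counts and MS4A1, NKG7 and CD163 had none. The summed level of the 14 was 13.4 to 15.6 CPM. Of 9 endothelial markers only PECAM1 was present, at 3.23 ± 0.928 CPM, with a summed level of 3.14 to 4.61 CPM and no count for CLEC4G. All 10 erythroid markers were silent, with 2 counts of HBB in replicate 2 and none elsewhere. Of 11 fibroblast and stellate markers 4 were present and the list summed to 175 to 190 CPM, of which LUM (lumican, a collagen-binding proteoglycan) held 166 ± 6.74, while COL1A1 stood at 7.13 ± 0.471 CPM and ACTA2 had no count. Of 9 genes fixed as marks of the packaging line HEK293T, a line with neural features, 2 were present and the list summed to 191 to 203 CPM. UCHL1 held 191 ± 5.77 CPM of that, while NEFL and STMN2 had no count. At 5 CPM the markers present were 2 for fibroblast and stellate cells, 1 for immune cells, 1 for HEK293T and 0 for endothelium, where PECAM1 was also under 1 TPM in at least 1 library. The part of other cells in the results was not tested.

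Promoter sequences of 4 genes are shown because they share a word that is rare among promoters, and they span the range of levels found. Each run is the 250 bases before the start site on the gene's strand, from RefSeq (GRCh38.p14), with the word in capitals (GTTAAT, then any base, then ATT, on either strand). AFP lies on chromosome 4 (chr4:73435971-73436220, plus strand). FGA, the fibrinogen alpha chain, lies on the same chromosome (chr4:154590743-154590992, minus strand). LIPC, hepatic lipase, lies on chromosome 15 (chr15:58431741-58431990, plus strand). G6PC1, the catalytic subunit of glucose-6-phosphatase, is named G6PC in the table and lies on chromosome 17 (chr17:42900549-42900798, plus strand).
AFP: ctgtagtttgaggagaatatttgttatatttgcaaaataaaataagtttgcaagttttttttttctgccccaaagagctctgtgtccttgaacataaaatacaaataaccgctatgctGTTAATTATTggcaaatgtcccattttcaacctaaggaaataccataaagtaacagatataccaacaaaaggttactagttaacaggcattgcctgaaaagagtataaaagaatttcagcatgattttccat
FGA: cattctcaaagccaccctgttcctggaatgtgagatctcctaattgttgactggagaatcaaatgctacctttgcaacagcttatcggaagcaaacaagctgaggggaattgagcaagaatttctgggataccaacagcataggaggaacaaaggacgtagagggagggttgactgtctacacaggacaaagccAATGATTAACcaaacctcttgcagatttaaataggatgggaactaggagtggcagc
LIPC: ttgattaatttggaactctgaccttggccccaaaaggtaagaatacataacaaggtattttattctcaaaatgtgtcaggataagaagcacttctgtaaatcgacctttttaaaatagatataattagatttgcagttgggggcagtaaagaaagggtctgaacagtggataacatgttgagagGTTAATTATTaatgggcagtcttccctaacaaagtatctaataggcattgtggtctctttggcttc
G6PC1: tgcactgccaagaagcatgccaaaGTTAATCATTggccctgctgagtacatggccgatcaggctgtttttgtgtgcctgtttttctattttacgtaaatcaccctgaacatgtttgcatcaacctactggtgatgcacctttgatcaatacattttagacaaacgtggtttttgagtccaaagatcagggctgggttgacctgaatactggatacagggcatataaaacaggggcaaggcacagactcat
As printed, the word begins at position -132 from the start site in AFP, -56 in FGA, -66 in LIPC and -226 in G6PC1. FGA stood at 1081, 1124 and 1036 CPM and LIPC, which frees fatty acids from lipoproteins, at 64.5, 61.7 and 65.5 CPM, while G6PC had 1, 0 and 3 counts. The word occurred on either strand in 80 of 27305 promoters of 300 bases (0.293%), and in 9 of the 179 with a sequence among the 244 genes of 9 liver function lists (5.03%). Of those 9, AFP, FGA, LIPC, SERPINA4, F13B and C4BPA were present, PRODH2 and PLG were in trace, and G6PC was silent. A match is a description of letters only.

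Promoters of the genes that were present held more CpG dinucleotides than those that were silent. The median number of CpG in the 300 bases was 26 over 9301 present protein-coding genes, 15 over 1945 in trace and 7 over 3836 silent ones. Genes of the liver lists held fewer in each state. Their medians were 7 in the 111 present, 2 in the 41 in trace and 3 in the 27 silent. The TATA box letters TATAAA, on either strand, stood in 5.68% of promoters of present protein-coding genes, 11.9% of those in trace and 18.0% of those of silent ones. Within the liver lists the shares were 14.4%, 48.8% and 29.6%, and 11.95% of all promoters held them.

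Mature microRNAs were not measured, but host transcripts of several liver and growth microRNAs were. Their mature sequences are shown, from RefSeq (GRCh38.p14), with the seed (bases 2 to 8) in capitals, since the seed sets the messages a microRNA can pair with.
hsa-miR-122-5p: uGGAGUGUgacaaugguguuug
hsa-let-7c-5p: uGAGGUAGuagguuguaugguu
hsa-miR-99a-5p: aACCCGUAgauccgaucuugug
hsa-miR-192-5p: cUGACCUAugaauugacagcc
hsa-miR-17-5p: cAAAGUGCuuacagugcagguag
None of these 5 shares a seed with another. MIR122HG, the host of the liver-enriched miR-122 on chromosome 18, stood at 39.6, 39.1 and 34.9 CPM. MIR99AHG, host of let-7c and miR-99a on chromosome 21, stood at 95.7, 87.7 and 91.7 CPM. LIN28B, which blocks let-7 maturation, stood at 429, 451 and 422 CPM in the same libraries. MIR194-2HG on chromosome 11, which holds miR-192, had 8.38 ± 0.271 CPM, and MIR17HG on chromosome 13, host of miR-17 and its cluster, had 12.3 ± 1.25. These 4 hosts were above 1 CPM in each library, while H19, the host of miR-675 on chromosome 11, had 0, 0 and 5 counts. A host's level does not give the level of the mature form.

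Mitochondrial messages held a large block of the control transcriptome. The 13 mitochondrially encoded mRNAs, all for subunits of the respiratory chain and ATP synthase, held 10.8% ± 0.236 of counts. MT-ND4, a subunit of complex I, alone held 26326, 24655 and 25734 CPM and MT-CO1, of complex IV, 21773, 21795 and 21728 CPM. MT-ND4 was lowest in replicate 2. Among nuclear genes ACTB (beta-actin) held 9386, 9334 and 9574 CPM, FN1 (fibronectin) 5515, 5815 and 5682, and AHNAK, a giant scaffold protein, 5315, 5581 and 5614. The ferritin light chain FTL held 4690.2 ± 48.6 CPM and the heavy chain FTH1 3165 ± 12.5, although 62.4% of the exonic bases of FTH1 lie opposite other annotated exons. The long non-coding RNA MALAT1 held 4517 ± 85 CPM, and RN7SL1, the RNA of the signal recognition particle, held 3302, 3952 and 3959. RN7SL1 was lowest in replicate 1, and its values are uncertain, since 100% of its exonic bases are shared on the same strand with another annotated gene. GAPDH, EEF1A1, SPTBN1, EEF2, KRT8, FLNA, ARHGAP5 and MYH9 also stood among the 30 rows with the most counts, with 1 row that is not reported by name.

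Length changed this order. On the TPM scale, which also divides by the length of a gene's longest transcript, the first 12 places went to 11 mitochondrial mRNAs and RN7SL1, and FTL (13203 ± 341 TPM) and ACTB (12131 ± 52.4 TPM) followed. AFP was at place 19 with 4488 ± 168 TPM and ALB at place 21 with 3573 ± 95.7. APOB, whose message is among the longest, fell from place 8 in CPM to place 36, with 1468 ± 71.3 TPM. The 10 rows with the most counts held 11.7% ± 0.176 of all counts, the first 100 held 24.6% and the first 1000 held 53.3%. The 89 cytosolic ribosomal protein genes held 1.66% ± 0.0405, long non-coding RNAs 1.46% ± 0.0298 and pseudogenes 0.479% ± 0.0173.

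Messages of secreted liver proteins were present for most of the genes listed. The 4 lists of secreted proteins (103 genes) held 2.78% ± 0.0566 of counts, and 71 members were present, 17 in trace and 15 silent (68.9% present, beside 58.9% of protein-coding genes). Their levels were uneven, since 10 genes held 81.0% of the counts of these lists. The median was 8.44 CPM, beside 6.59 CPM for all protein-coding genes.

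Of 37 plasma carriers and protease inhibitors 28 were present, with a median of 56.3 CPM. After AFP and ALB, the highest per length were AMBP, the precursor of alpha-1-microglobulin, at 1171 ± 35.4 TPM, RBP4, the carrier of retinol, at 605 ± 14.1 TPM, and ORM1, an acute phase glycoprotein, at 577 ± 8.45 TPM, which is uncertain because ORM2 is a near copy. TF (transferrin) stood at 1143, 1199 and 1146 CPM and A2M, a broad protease trap, at 770.2, 777 and 755 CPM. Per length TF was at 139 ± 5.81 TPM with a longest transcript of 20602 bases, so its place in this order depends on the length used. TTR, the carrier of thyroid hormone, stood at 113 ± 3.89 CPM. HP (haptoglobin) was present near the threshold at 1.9 ± 0.529 CPM, and SERPINC1 (antithrombin) was in trace at 0.355, 0.357 and 0.89 CPM. Members of the inter-alpha-trypsin inhibitor family split, with the heavy chain ITIH2 at 582, 587 and 563 CPM and ITIH1 and ITIH3 silent at 1, 1 and 0 and 0, 0 and 1 counts.

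Of 22 apolipoproteins and lipoprotein factors 14 were present, 2 in trace and 6 silent. APOB and APOA2 were the highest per length, at 1468 ± 71.3 and 993 ± 63.2 TPM. MTTP, which loads lipid onto apoB, stood at 51.4 ± 2.71 CPM. APOA1, the main protein of high density lipoprotein, stood at 35.7, 36.8 and 38.7 CPM (74.6 ± 2.18 TPM) and APOC3 at 5.14 ± 0.174 CPM. APOE, a ligand of the remnant receptors, differed between libraries at 270.3, 143 and 267 CPM. The value in replicate 2 was the low one, and the SD of this GC-rich message (68.5% GC) was 32.1% of its mean, beside a median of 4.87% over genes at 10 CPM or more. APOA5, LPA, APOF, APOC4 and ANGPTL8 had no count in any library, although APOC4 shares most of its exonic bases with a neighbouring annotated gene and is uncertain.

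Of 17 clotting and fibrinolysis genes 14 were present. The 3 fibrinogen chains were high together, with FGB at 1144, 1233 and 1153, FGA at 1081, 1124 and 1036 and FGG at 664, 706 and 637 CPM. Replicate 2 was the highest of the 3 libraries for each chain. Prothrombin (F2) stood at 78.1, 73.8 and 78.1 CPM and PROS1 (protein S) at 193, 197 and 187 CPM. F9, the factor missing in haemophilia B, had no count in any library, and PLG (plasminogen) had 0, 4 and 0 counts. F7, F10 and F11 were present between 8.1 ± 0.764 and 12.6 ± 1.1 CPM.

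Complement and acute phase genes were more often in trace, with 15 of 27 present (55.6%, beside 58.9% of protein-coding genes). A further 8 were in trace and 4 were silent, and the median was 1.72 CPM. C5 stood at 709, 713 and 637 CPM, and C3 at 212, 234 and 238. C3 was lowest in replicate 1 and C5 lowest in replicate 3. Of the proteins that rise in the acute phase, CRP, SAA1 and LBP had no count in any library, and SAA2, a near copy of SAA1, was in trace with 10, 4 and 8 counts. At 5 CPM 9 of the 27 were present. C4A and C4B, near-identical copies that a counter may split, were in trace at 0.895 ± 0.546 and 0.865 ± 0.277 CPM. HAMP (hepcidin, the iron hormone) was present at 1.85, 1.19 and 1.17 CPM.

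**Figure D1:**
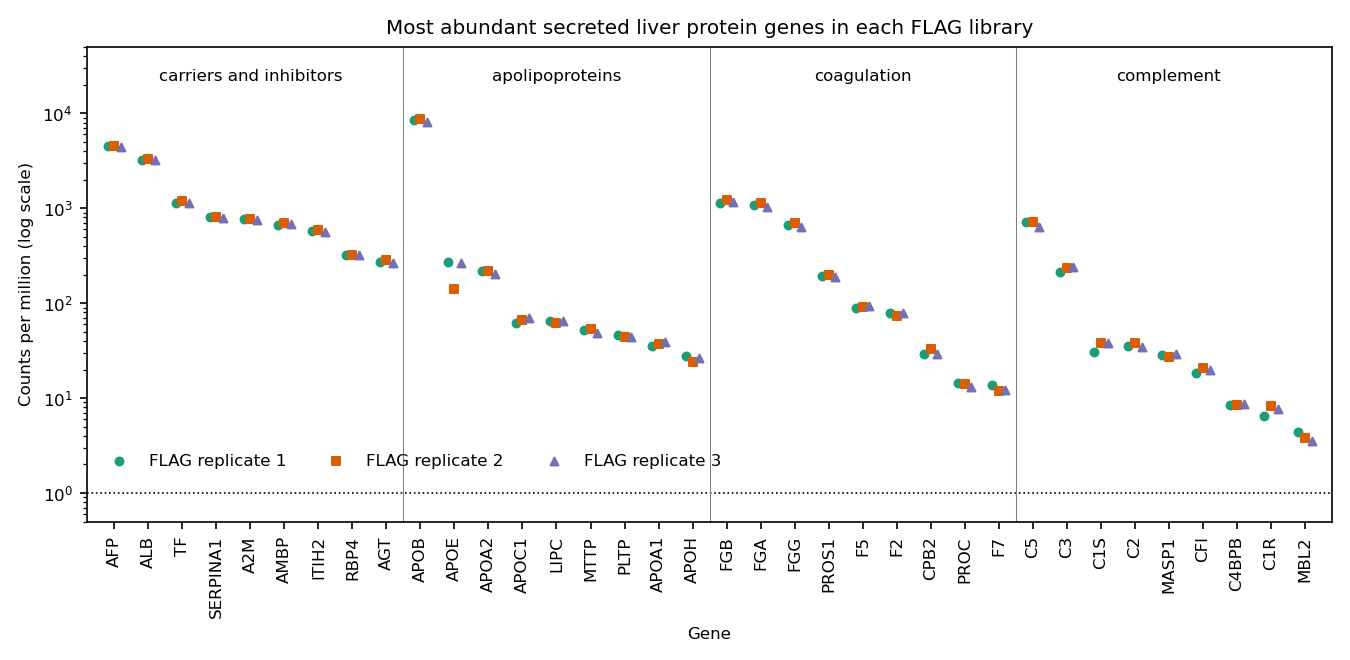
CPM on a log axis for 9 genes of high level in each of the 4 secreted lists, with 1 point per FLAG library; the dotted line is 1 CPM. The 3 libraries nearly coincide for most genes, and APOE in replicate 2 (143 CPM against 270 and 267) stands apart.

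Enzymes and carriers of liver metabolism were present in part. Over 5 lists (141 genes) 75 were present, 40 in trace and 26 silent, so 53.2% were present with a median of 1.79 CPM, beside 58.9% and 6.59 CPM for all protein-coding genes. The 9 liver function lists together had 146 of 244 genes present (59.8%), a share near the background.

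In nitrogen metabolism the urea cycle had 1 member silent and 1 in trace beside members that were present. Its first enzyme CPS1 was present at 7.85, 7.43 and 8.48 CPM, ASS1 at 5.01, 5.16 and 4.26 and ASL at 18.8, 19.4 and 22.1, and the ornithine carrier SLC25A15 at 17.7, 17.4 and 15.9. OTC, which makes citrulline, had 0, 1 and 0 counts, and ARG1, which releases urea, was in trace with 14, 18 and 4 counts. No library held more than 1 count of OTC. Genes of amino acid breakdown were retained in part. HGD, of tyrosine breakdown, stood at 127, 140.5 and 129 CPM, while of the enzymes before it on that path TAT was present at 3.42 ± 0.643 CPM and HPD in trace at 0.837 ± 0.298. GLUL (glutamine synthetase) was the highest of the 35 genes per length, at 461, 469 and 464 CPM and 243 ± 5.36 TPM. In this list 19 were present (54.3%, beside 58.9% of protein-coding genes), 11 in trace and 5 silent. SDS, PRODH and DPYS had no count.

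Glucose output genes were present in part, with several genes of gluconeogenesis at the detection limit. Of 19 genes 12 were present (63.2%, beside 58.9% of protein-coding genes), 2 in trace and 5 silent. PC (pyruvate carboxylase), which begins gluconeogenesis in mitochondria, stood at 265, 253 and 279 CPM and the mitochondrial carboxykinase PCK2 at 23.2, 23.5 and 21.3. Other genes of the committed steps were at the detection limit. The cytosolic carboxykinase PCK1 had 6, 0 and 0 counts, FBP1 (fructose-1,6-bisphosphatase) 0, 2 and 0 and G6PC 1, 0 and 3. SLC37A4, the glucose-6-phosphate carrier that works with G6PC, was nevertheless present at 13.5, 13.2 and 13.7 CPM, as was the coactivator PPARGC1A at 29.2, 30.9 and 26. PYGL, the liver phosphorylase that breaks down glycogen, stood at 127, 124 and 125 CPM. GYS2, the liver glycogen synthase, had no count, with most of its exonic bases shared with another annotated gene. KHK, which phosphorylates fructose, stood at 1.62, 2.46 and 3.84 CPM. It was lowest in replicate 1 and highest in replicate 3.

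Bile acid signalling genes and the canalicular pumps were present, while the first enzymes of the classical path and several carriers were silent or in trace. Of 29 genes 16 were present (55.2%, beside 58.9% of protein-coding genes), 9 in trace and 4 silent. The FGF19 receptor FGFR4 stood at 81.1, 67.2 and 75.8 CPM with its co-receptor KLB at 159.7, 155 and 153, the bile acid sensor NR1H4 (FXR) at 65.1, 63.3 and 61 and the ligand FGF19 itself at 5.48, 6.67 and 6.51. CYP7A1, the rate-limiting enzyme of the classical path, had 0, 0 and 2 counts and CYP8B1 had 0, 1 and 0. CYP27A1, of the alternative path, was present at 17.9, 20.7 and 17.1 CPM, and BAAT, which conjugates bile acids, at 17.3, 16.8 and 13.7. The canalicular export pumps ABCC2 and ABCB11 stood at 119, 117 and 107 and 4.73, 3.18 and 4.4 CPM. The basolateral exporter of 2 subunits was in trace, SLC51A with 3, 4 and 0 counts and SLC51B with 13, 47 and 47, and of the sterol exporter ABCG5 had no count and ABCG8 had 9, 0 and 1. SLC10A1 (NTCP), the basolateral uptake carrier, had no count in any library, and the uptake carrier SLCO1B1 was in trace at 0.394, 0.754 and 1.31 CPM. The FXR target NR0B2 (SHP) was in trace at 1.06, 0.516 and 0.984 CPM.

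Drug-metabolising P450 genes had the lowest share present of the 9 liver lists (38.1%, beside 58.9% of protein-coding genes). Of 21 genes 8 were present, 8 in trace and 5 silent, with a median of 0.725 CPM. CYP1A1, a target of the aryl hydrocarbon receptor, stood at 55.4, 58.5 and 54.9 CPM, CYP2B6 at 23.7, 23.9 and 25.8 and CYP3A5 at 14.4, 12 and 12.2. The main adult forms were silent or in trace, CYP3A4 with 3, 1 and 5 counts, CYP2E1 with 12, 8 and 11 and CYP1A2 with 1, 1 and 1. CYP2A6 had no count. The shared electron donor POR was present at 91.6, 82.1 and 89.1 CPM. Conjugating, alcohol and aldehyde enzymes had 20 of 37 present (54.1%, beside 58.9% of protein-coding genes), 10 in trace and 7 silent. ALDH1A1, a retinal dehydrogenase, stood at 651, 635 and 635 CPM and GSTP1, the glutathione transferase of non-hepatic tissue, at 366, 382 and 386. The alcohol dehydrogenases ADH1B, ADH1C and ADH4 of the liver and ADH7 of the stomach had no count, and ADH1A had 1, 0 and 0 counts, while the ubiquitous ADH5 stood at 67.2, 72.4 and 74.9 CPM. UGT2B4 was present at 72.2, 68.7 and 68.7 CPM, uncertain because its family holds close copies.

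**Figure D2:**
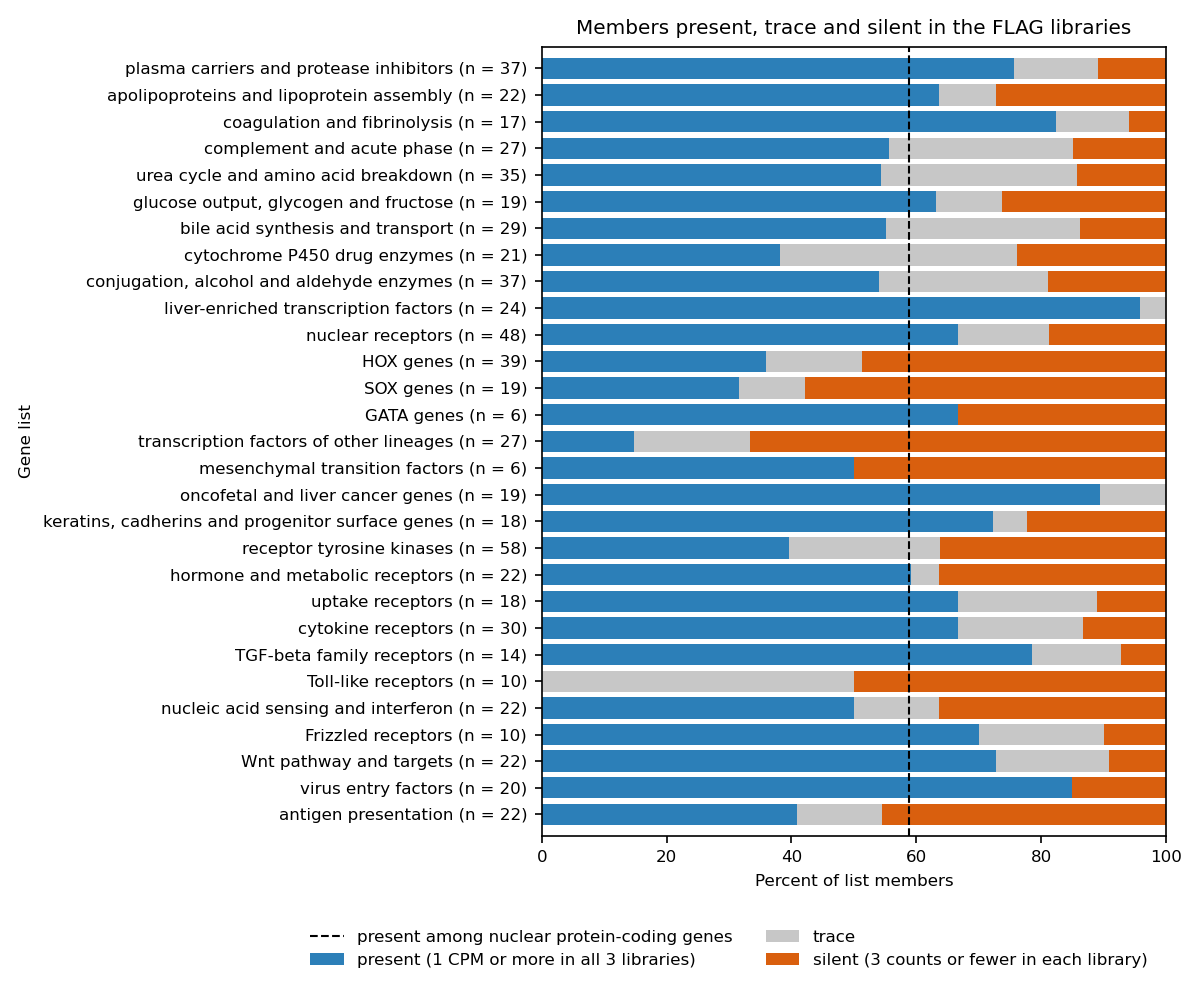
Percent of the members of each of 29 gene lists that were present (1 CPM or more in all 3 libraries), in trace or silent (3 counts or fewer in each); the dashed line is the 58.9% of nuclear protein-coding genes that were present. Liver-enriched transcription factors have 23 of 24 members present, and the Toll-like receptors have none of 10.

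The transcription factors of the liver were nearly complete in the control cells. Of 24 liver-enriched factors 23 were present (95.8%, beside 58.9% of protein-coding genes), 1 in trace and none silent, with a median of 65.5 CPM. HNF4A stood at 325, 321 and 318 CPM and CEBPA at 68.4, 58.2 and 66.3. HNF4A varied less across libraries, and CEBPA was lowest in replicate 2. FOXA1, FOXA2 and FOXA3, which open liver chromatin, stood at 100.02 ± 4.16, 82.3 ± 2.31 and 46.1 ± 8.04 CPM. PROX1, a factor of hepatoblast migration, held 726, 723 and 723 CPM and ONECUT2 569, 539.8 and 541. Per length XBP1, of the secretory stress response, was the highest of the list at 380.1 ± 10.1 TPM, followed by PROX1 at 211 ± 3.68 and ONECUT1 at 161 ± 6.85. DBP, a clock-driven factor, was the member in trace at 1.06, 1.95 and 0.609 CPM.

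Of 48 nuclear receptors 32 were present (66.7%, beside 58.9% of protein-coding genes), 7 in trace and 9 silent. Besides HNF4A, NR5A2 (LRH-1), which acts on bile acid genes, stood at 227, 218 and 228 CPM, the thyroid hormone receptor THRB at 168, 159 and 168 and the glucocorticoid receptor NR3C1 at 162, 166 and 155. RXRA, the common partner, stood at 83.7, 77.4 and 94.4 CPM. PPARG, the fat cell receptor, stood at 76, 74.4 and 68 CPM (88.8 ± 6.44 TPM) and PPARA, the fatty acid sensor of adult liver, at 14.7, 12.3 and 10.7 CPM (3.11 ± 0.529 TPM). The xenobiotic receptors were silent, NR1I2 (PXR) with 0, 1 and 2 counts and NR1I3 (CAR) with none. Of the oestrogen and progesterone receptors ESR1 had 7, 1 and 1 counts and ESR2 had 1, 2 and 2, and PGR was present at 1.8 ± 0.395 CPM. The mineralocorticoid receptor NR3C2 was present at 6.39 ± 1.11 CPM, and the vitamin D receptor VDR was in trace with 4, 1 and 9. The retinoic acid receptors RARA, RARB and RARG were all present, at 43.6 ± 6.82, 12.8 ± 2.17 and 1.37 ± 0.214 CPM. RARA was lowest in replicate 2.

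The HOX genes that were present, which set position along the body axis, lay in the HOXA and HOXC clusters. In the HOXA cluster 8 of 11 genes were present and in HOXC 6 of 9, with the other genes of both in trace. In all 14 of 39 HOX genes were present (35.9%, beside 58.9% of protein-coding genes). At 5 CPM 7 HOX genes were present in place of 14. All 10 HOXB and all 9 HOXD genes were silent, with a summed level of 0.0156 and 0.0816 CPM beside 88.6 CPM for HOXA and 50.5 CPM for HOXC. Among those present were HOXC10 at 19.1, 17.4 and 19.3 CPM and HOXA3 at 26.4, 22 and 29.98. Posterior genes were among those present, with HOXC13 at 7.07 ± 0.416 and HOXA13 at 2.53 ± 0.311 CPM. Of 19 SOX genes 6 were present (31.6%, beside 58.9% of protein-coding genes). SOX4 led them at 352, 340.1 and 330.1 CPM, and the duct factor SOX9 stood at 54.4, 54 and 55. SOX17, an endoderm factor, had no count. GATA4 and GATA6, the factors of early liver endoderm, stood at 73.7 ± 1.13 and 20.5 ± 3.41 CPM, GATA2 at 51.1 ± 5.32, and the erythroid GATA1 had no count.

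Regulators of other lineages were mostly off. Of 27 such factors 4 were present, 5 in trace and 18 silent (14.8% present, beside 58.9% of protein-coding genes). At 5 CPM 2 were present. RUNX1, a blood factor, was present at 99.1, 93.7 and 98.5 CPM and PAX6, of eye and pancreas, at 26.7, 33.5 and 30.3. TP63 and CDX2 stood at 2.99 ± 0.986 and 2.07 ± 0.443 CPM. MYOD1, NEUROD1, NKX2-1 and PTF1A had no count. Of 6 factors of the mesenchymal transition, ZEB1, SNAI1 and ZEB2 were present at 72.9 ± 8.57, 8.17 ± 0.72 and 4.51 ± 0.227 CPM, SNAI2 had 0, 1 and 1 counts, and TWIST1 and TWIST2 had none.

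**Figure D3:**
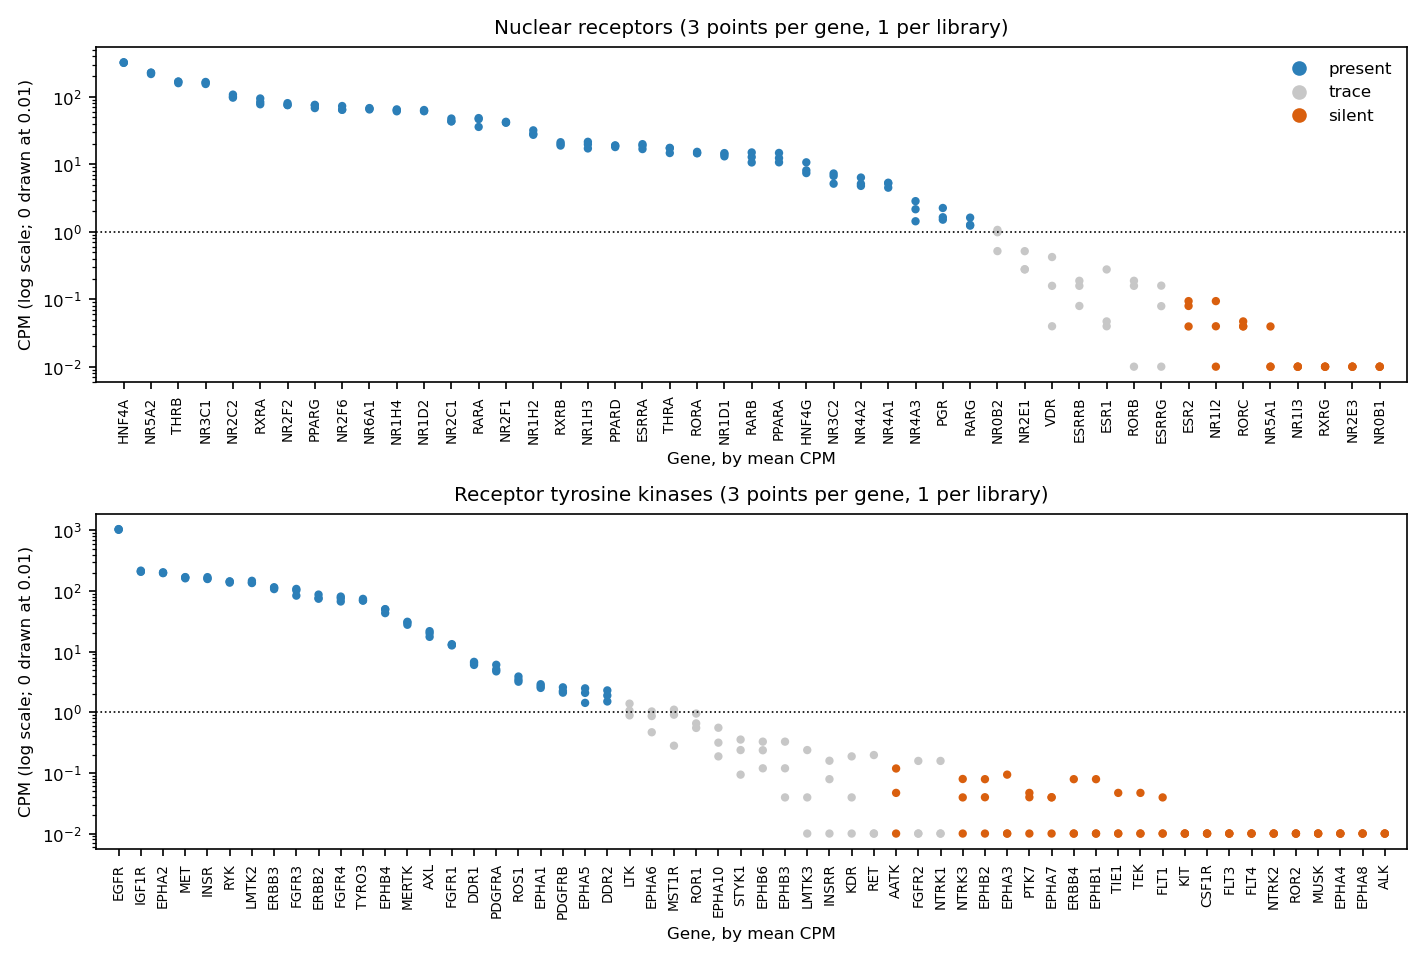
CPM on a log axis for 47 of 48 nuclear receptors (top) and 58 receptor tyrosine kinases (bottom), ordered by mean, with 3 points per gene, 1 per FLAG library; values of 0 are drawn at 0.01 and the dotted line is 1 CPM. Members fall steeply from HNF4A (321 CPM) and EGFR (1040 CPM, mean of 3) to receptors with no count, such as NR1I3 and ALK.

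Genes of the fetal liver and of liver cancer were nearly all on. Of 19 genes 17 were present (89.5%, beside 58.9% of protein-coding genes) and 2 in trace, with a median of 209 CPM. The let-7 targets IGF2BP1 and HMGA2 stood at 647, 637 and 640.5 and 203, 210.5 and 214 CPM, and LIN28A, the paralog of LIN28B, was in trace at 0.431 ± 0.00803 CPM. GPC3 (glypican-3), a tumour antigen of the liver, stood at 375, 376 and 371 CPM, SPINK1, a trypsin inhibitor, at 549.8, 564 and 551, and PROM1 (CD133), a progenitor surface protein, at 387, 409 and 371. Per length SPINK1 came next to AFP, at 1155 ± 34.2 TPM. Of the imprinted neighbours IGF2 and H19, IGF2 stood at 40.8, 32.3 and 50.4 CPM and H19 had 0, 0 and 5 counts. The IGF2 value is uncertain, since 25.1% of its exonic bases are shared on the same strand with another annotated gene.

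Epithelial keratins, the mesenchymal filament gene VIM and several surface genes were present side by side. The hepatocyte keratins KRT8 and KRT18 stood at 1889.8, 1896 and 2044 and 905, 881 and 957 CPM, and both were highest in replicate 3. KRT19, of bile ducts and progenitors, stood at 178, 187 and 197 CPM, while the duct keratin KRT7 had 1, 0 and 0 counts. VIM (vimentin) stood at 1265, 1205 and 1265 CPM. EPCAM was present at 11, 10.2 and 11.9 CPM, CD24 at 811, 863 and 850.4 and CD44 at 151, 146 and 148. Of the 18 genes of this list 13 were present (72.2%, beside 58.9% of protein-coding genes) and 1 was in trace. The other 4 were silent, KIT and SPP1 among them.

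Growth factor receptors were led by the EGF receptor. EGFR stood at 1040.4, 1051 and 1023 CPM and 261 ± 8.07 TPM, the highest of 58 receptor tyrosine kinases per length. EPHA2, a receptor for ephrin-A ligands, followed at 125 ± 0.157 TPM and RYK, a Wnt receptor, at 119 ± 3.46 TPM. MET, the receptor of hepatocyte growth factor, stood at 168, 169.9 and 162 CPM, INSR at 158, 169.6 and 161 and IGF1R at 208, 209.8 and 217. ERBB2 and ERBB3 stood at 79.6 ± 6.88 and 112 ± 3.99 CPM, while ERBB4 was silent with 2, 0 and 0 counts. FGFR3 and FGFR4 were present at 98.4 ± 12.7 and 74.7 ± 6.98 CPM, FGFR1 at 13 ± 0.319, and FGFR2 was in trace with 4, 0 and 0 counts. In all 23 were present (39.7%, beside 58.9% of protein-coding genes), 14 in trace and 21 silent. The receptors of blood, vessel and nerve KIT, FLT3, FLT4, CSF1R, NTRK2 and ALK had no count.

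Hormone receptors were present in part. Both adiponectin receptors, ADIPOR1 and ADIPOR2, were present at 204 ± 8.54 and 162 ± 7.68 CPM, the growth hormone receptor GHR at 20.7, 18.5 and 16.2 and the prolactin receptor PRLR at 50.2, 49.3 and 49.4. GCGR, the glucagon receptor of adult hepatocytes, had 1, 0 and 0 counts, and the adrenergic receptor ADRA1B had 1, 0 and 0. ADRA1A and GLP1R had none. Of 22 members 13 were present (59.1%, beside 58.9% of protein-coding genes), 1 in trace and 8 silent, a share near the background.

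Of 18 uptake receptors 12 were present (66.7%, beside 58.9% of protein-coding genes), a share near the background. LRP1, which clears lipoprotein remnants, stood at 845, 861 and 873 CPM, and SCARB1, which takes up cholesterol ester, at 219.7, 223 and 234. The transferrin receptor TFRC stood at 505, 498 and 480.5 CPM. The asialoglycoprotein receptor, a hepatocyte surface lectin of 2 subunits, was present as ASGR1 at 10.5, 7.43 and 10.7 and ASGR2 at 73.5, 78.5 and 76.5 CPM. ASGR2 was the higher per length, at 135 ± 5.55 TPM beside 15.2 ± 2.75.

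The receptor chains for cytokines of the IL-6 family named here were present. IL6ST (gp130), the shared chain, stood at 416, 417 and 395 CPM, OSMR at 332, 342 and 337, LIFR at 191, 203 and 183 and IL6R at 68.1, 68.9 and 69.99. Of 30 cytokine receptors 20 were present (66.7%, beside 58.9% of protein-coding genes), 6 in trace and 4 silent. The interferon receptor chains IFNAR1, IFNGR1 and IFNLR1 were present at 71.5 ± 4.73, 39.8 ± 1.68 and 11.7 ± 0.272 CPM. The death receptors TNFRSF10A and TNFRSF10B stood at 31.9 ± 1.54 and 84.7 ± 1.4 CPM, while FAS had no count in any library. In the TGF-beta family 11 of 14 receptors were present (78.6%). TGFBR2 stood at 481, 493 and 475 CPM and BMPR2 at 263, 259.8 and 258, and the endothelial ENG was silent.

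Wnt pathway genes were present in 16 of 22 cases (72.7%, beside 58.9% of protein-coding genes). CTNNB1 (beta-catenin) stood at 475, 515 and 512 CPM and LGR4, a receptor of R-spondins, at 349, 352 and 349. FZD5 was the main Frizzled receptor, at 472, 457 and 499 CPM and 175 ± 4.82 TPM, with FZD4 at 22.9 ± 0.357 TPM, and 7 of 10 Frizzled genes were present (4 at 5 CPM). Pathway targets differed, with DKK1 at 77, 62.2 and 78.9 CPM, LGR5 at 8.6, 10.2 and 9.04 and AXIN2 at 2.17, 2.06 and 1.55. The AXIN2 value is uncertain because part of its exons overlap another annotated gene. LEF1 had 1, 3 and 0 counts.

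Toll-like receptors were at or near the detection limit, while other genes of nucleic acid sensing were present in part. None of 10 Toll-like receptors was present, 5 were in trace and 5 silent, and their summed level was 1.35 to 1.92 CPM. TLR3, the sensor of double-stranded RNA, had 2, 5 and 5 counts. Of 22 genes of nucleic acid sensing and interferon 11 were present (50%, beside 58.9% of protein-coding genes), 3 in trace and 8 silent. The adaptor MAVS stood at 355, 365 and 355 CPM and the kinase TBK1 at 73, 74 and 70.6, while the sensors DDX58 (RIG-I) and IFIH1 (MDA5) stood at 2.13, 2.26 and 3.14 and 0.118, 0.0397 and 0.234 CPM. CGAS and STING1, the DNA sensor and its adaptor, had 1, 2 and 5 and 5, 0 and 1 counts. No library held a count of IFNB1, IFNL1, IFNL2 or IFNL3. ISG15, induced by interferon, stood at 14.3, 9.17 and 16 CPM. These cells had been given lentivirus, and uninfected Huh7 cells were not analysed here.

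Pairs of an adult liver member and another member of the same family or function were set side by side within each library. The other member is not always a form of other tissues, since AFP is of the fetal liver. The counts below therefore do not show that forms of other tissues replaced those of liver. In 4 of 28 pairs neither member was present. In the other 24 the adult member had the lower mean CPM in 17 and the higher in 7. A ratio per length was formed only where both members had over 10 counts in every library or 1 was at 0 throughout, which left 15 pairs. In these the other member was higher in 11, including 2 pairs with the adult member at 0, and the adult liver member in 4. Of those 2 pairs, GYS2 over GYS1 is uncertain for shared exonic bases, and in HSD11B1 over HSD11B2 neither member was present. The pairs were chosen with earlier results known, so the counts are a description.

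Among the 13 pairs with over 10 counts of both members in every library the widest gap per length was in methionine metabolism. MAT1A, the adult methionine adenosyltransferase, stood at 2.56, 2.06 and 3.19 CPM and MAT2A, its growth-linked form, at 272, 258 and 253, a log2 ratio per length of -6.94 ± 0.33. The transferrin receptors TFR2 over TFRC gave -6.59 ± 0.05 (-7.30 without division by length), with TFR2 at 3.31, 3.06 and 3.05 CPM. SLC2A2 (GLUT2) over SLC2A1 (GLUT1) gave -3.42 ± 0.37, from 2.8, 1.87 and 2.44 and 28.8, 30.7 and 26.5 CPM. With the median transcript in place of the longest that ratio was -6.18. IGF1 over IGF2 gave -4.17 ± 0.78 with the largest spread, since IGF1 was lowest where IGF2 was highest, in replicate 3. That ratio was -1.14 with the median transcript, so its size depends on the length used. ACACB over ACACA, the mitochondrial and cytosolic acetyl-CoA carboxylases, gave -3.31 ± 0.07. CDH1 over CDH2, E-cadherin and N-cadherin, gave -2.04 ± 0.14, from 57, 57 and 48.5 and 191, 203 and 196 CPM. Smaller differences stood between ALB and AFP (-0.33 ± 0.03), PYGL and PYGB (-0.58 ± 0.07) and SLC7A2 and SLC7A1 (-0.17 ± 0.04). GYS2 was listed at 0 beside GYS1 at 77, 68.9 and 70.9 CPM, and no bound is given, since 87.5% of its exonic bases are shared on the same strand with another annotated gene. HSD11B1, which reactivates cortisol, was at 0 beside HSD11B2 at 0.907, 0.754 and 0.937 CPM, at least 4.87-fold lower per length, taking 3 counts per library as the floor.

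The adult member was the higher in 4 pairs, of which 3 are named here. KRT18 over KRT19 gave 2.00 ± 0.05, the phosphofructokinases PFKL over PFKP 2.80 ± 0.20 and the enolases ENO1 over ENO2 4.78 ± 0.07. PFKL over PFKP was 7.23 with the median transcript as the length (a 21.6-fold change in the ratio). Of the 13 pairs with no ratio, several had a member near 0. PKLR, the liver pyruvate kinase, had 0, 5 and 0 counts beside PKM at 1222, 1299 and 1302 CPM. GSTA1 had 9, 4 and 3 counts beside GSTP1 at 366, 382 and 386 CPM. LDHA, the main lactate dehydrogenase subunit of liver, stood at 485, 517 and 499.9 CPM beside the heart subunit LDHB with 3, 3 and 0 counts, and 33.4% of the LDHB exonic bases are shared with another annotated gene. ALDOA, at 21.3, 20.3 and 25.1 CPM, is uncertain since 42.3% of its exonic bases are shared in the same way. FBP1 and FBP2 were both silent. CPT1A, the liver form of carnitine palmitoyltransferase, stood at 57.7, 65.2 and 59 CPM and the muscle form CPT1B at 0.552, 0.635 and 0.375.

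**Figure D4:**
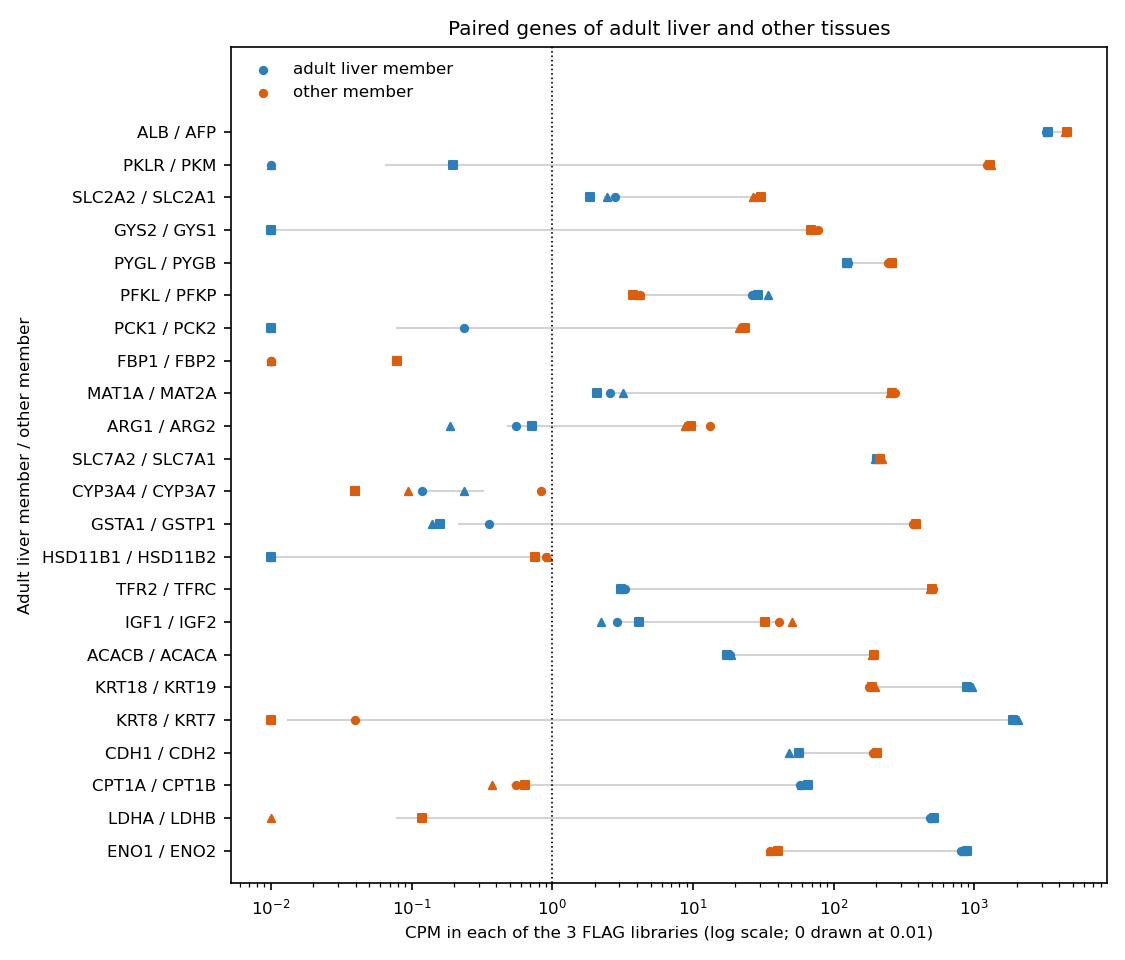
CPM on a log axis for both members of 23 of the 28 pairs, adult liver form in blue and the other form in orange, with circles, squares and triangles for FLAG replicates 1, 2 and 3 and a grey line between the means; values of 0 are drawn at 0.01. The adult member lies to the left in 16 of those drawn, with MAT1A at 2.60 CPM and MAT2A at 261 CPM as an example.

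Replicates were close for most genes. Across 13461 genes with enough counts, the common CV beyond counting error was 7.13% in edgeR's negative binomial fit, in which each gene's CV is drawn towards the trend. Among 9146 genes at 10 CPM or more the median of this moderated CV was 6.04%, and the lowest was 4.37%. The plain ratio of SD to mean CPM, which is not drawn to a trend and holds counting error too, had a median of 4.87%. By that ratio 84.9% of the 9146 genes were under 10%, and 146 were over 20%. A chi-square test of the 3 counts against the library totals nevertheless called 5289 of 14931 genes (35.4%) at a Benjamini-Hochberg adjusted p under 0.05, a test of these libraries' reads and not of a condition. The lowest moderated CVs were those of ERGIC1 at 402, 400.04 and 400.04 CPM, CAP1 at 459, 459 and 455, NAP1L1 at 346, 347 and 349, STAU1 at 328, 329.9 and 329.7 and NUCKS1 at 483, 485 and 488.

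Small nuclear RNAs of the spliceosome led the rows by spread, and the 6 with the highest plain ratio were all of this kind. RNU4-1 stood at 242, 155 and 409 CPM, RNU4-2 at 234, 147 and 401, RNU5A-1 at 14.2, 8.18 and 24.1, RNU5B-1 at 13.9, 7.39 and 22.7, RNU6-2 at 20.4, 12.2 and 35 and RNU6-9 at 20.2, 12.2 and 34.2. Each was highest in replicate 3 and lowest in replicate 2, with an SD of 48.0% to 52.3% of the mean. The U4, U5 and U6 class as a whole held 0.0554%, 0.0347% and 0.0932% of counts. Mitochondrial ribosomal RNA went another way, at 0.0790%, 0.0484% and 0.0315%, with MT-RNR2 at 614, 369 and 237 CPM. The pseudogene MTCO2P12 had 13.5, 7.5 and 18.4 CPM. Replication-dependent histone genes held 0.317% ± 0.0262 of counts and 7SL RNA 0.498% ± 0.0659. Whether the shares of these RNAs reflect the cells or the library step was not tested.

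Among protein-coding genes the spread moved with GC content. NAPRT, an enzyme of NAD synthesis with 67.9% GC, stood at 13.8, 6.47 and 14.1 CPM, and VASN, a TGF-beta binding protein with 66.2% GC, at 13.9, 6.47 and 13.2. Replicate 2 was the low library for both, as it was for APOE. Not all variable genes were rich in GC. The highest plain ratio of a protein-coding gene was 43.8%, at 44.4% GC, beside a plain ratio of 37.7% for NAPRT. Among the 100 protein-coding genes with the highest moderated CV, 65 were lowest in replicate 2 and 59 highest in replicate 3, and their median GC content was 61.8% beside 48.3% for all 8887 at 10 CPM or more. Among the 888 genes richest in GC the median log2 ratio to the mean of the libraries was 0.03, -0.10 and 0.08 in replicates 1, 2 and 3, and among the 889 poorest in GC it was 0.01, 0.03 and -0.04. Without replicate 2 the common CV was 5.64%. The part of GC content in the spread of single genes was not tested.

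**Figure D5:**
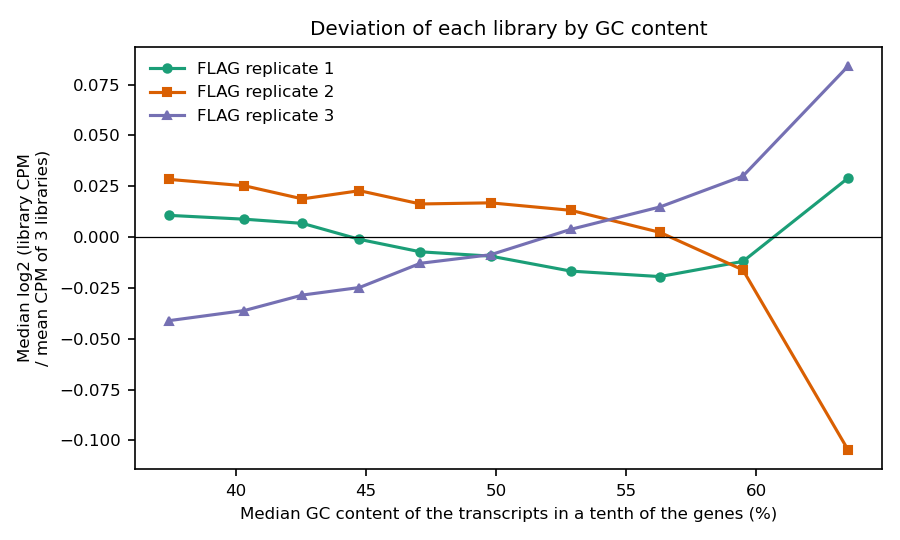
Median log2 ratio of each library's CPM to the mean of the 3 FLAG libraries, for 8887 protein-coding genes split into 10 bins by transcript GC content (x axis, median percent of each bin). Replicate 2 falls to -0.10 and replicate 3 rises to 0.08 in the bin with the most GC.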

How the data were processed

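RNA sequencing libraries of 3 FLAG samples of Huh7 cells were used, with 21345279 to 25352335 counts each. The table the authors deposited holds whole numbers, read from their range as estimated counts with no normalization. STAR, RSEM and limma, and the builds hg19 and hg38, are named in the submitters' processing notes with no role or order. The build and annotation behind the table, strandedness and RNA selection were not given in the sources used here, so coordinates come only from RefSeq. Paralogs and overlapping genes are less certain, since their shared reads are apportioned. Of the list and pair genes 43 share over 20% of exonic bases on the same strand with another GENCODE release 29 gene.

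CPM used the column total. TPM divided counts by the longest basic transcript in GENCODE release 29, found for all but 39 rows, which held at most 0.0633% of counts. RefSeq (GRCh38.p14) gave gene classes for 37550 rows. Dispersion came from edgeR 4.0.16 in R 4.3.3 with an intercept only (filterByExpr, minimum count 10, minimum total 15), with DESeq2 1.42.0 as an alternative. Counts were compared between libraries by chi-square for genes with at least 20 counts in all, with Benjamini-Hochberg adjustment in scipy 1.17.1. Both were tested on simulated data. The members, the 36 lists (716 genes) and the pairs were chosen with earlier results of these data known, so lists are described by counts and medians with no test. Named genes were the 30 with the highest mean CPM, the 6 highest and the silent members of each list, both genes of each pair, the 10 highest and 5 lowest moderated CVs, and list members whose role is described. The microRNA hosts, and SLC37A4, FGF19 and other members below the first 6, were named for their role. Alternatives covered the presence threshold, library size, transcript length, filters and leaving out each library. In the lactate dehydrogenase pair LDHA was set as the liver member after its values were known. A few list members go unnamed in the text and the plots but were counted with their lists.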

Additional observations from a re-analysis of the deposited data

How the results depend on the processing

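No paired analysis was possible because 1 group was used and nothing was contrasted, so a replicate block could not be fitted. The number of genes present kept within 1.5 times of 12341 under every threshold, scaling and left-out library tried, from 10246 at 5 CPM to 13205 at 0.5 CPM. Of 432 list counts over all alternatives 10 moved by more than 1.5 times, 9 of them at 5 CPM. There HOX genes present fell from 14 to 7, complement and acute phase genes from 15 to 9, Frizzled receptors from 7 to 4, antigen presentation genes from 9 to 5 and factors of other lineages from 4 to 2, with 4 marker lists that also fell. The other was endothelial markers, from 1 to 0, in TPM. The 10 rows with the most counts held 5.93% without mitochondrially encoded RNA and 26.9% in TPM. The mitochondrial mRNAs held 26.9% in TPM, the 4 secreted lists 3.12% without mitochondrially encoded RNA and 2.19% in TPM, and ribosomal protein genes 1.86% and 3.30%. These settings differ in the denominator, in the division by length and, for the 10 rows, in which rows are counted. The common CV ran from 5.64% without replicate 2 to 8.48% without replicate 1, and was 8.80% as DESeq2's median over genes. Genes beyond counting error numbered 3284, 2405 and 2878 without replicates 1, 2 and 3, each from fewer samples than the 5289 of the full set. No ratio of a pair reversed, while 11 of 15 moved by more than their SD with counts not divided by length, and 11 with the median transcript as the length. Of these the median transcript moved 3 by over 1.5 times: SLC2A2 over SLC2A1 by 6.78-fold, IGF1 over IGF2 by 8.17-fold and PFKL over PFKP by 21.6-fold. The median transcript, edgeR's gene-wise CV (median 7.82%) and the ratio of SD to mean (median 6.76%) were chosen after seeing the data. At 21 to 25 counts per CPM, differences among genes in trace are not resolved.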

Other observations

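Genes that viruses use to enter liver cells were present in 17 of 20 cases (85%, beside 58.9% of protein-coding genes). CLDN1, a tight junction protein used by hepatitis C virus, stood at 1103, 1029 and 1019.8 CPM and its partner OCLN at 107, 117 and 113. The other hepatitis C receptors SCARB1 and CD81 stood at 219.7, 223 and 234 and 13.5, 12.7 and 13.4 CPM. HAVCR1, a receptor of hepatitis A virus, stood at 313, 332 and 325 CPM and CXADR, the coxsackievirus and adenovirus receptor, at 168, 170.5 and 162. Of the 3 silent members SLC10A1, the receptor of hepatitis B virus, and TMPRSS2 had no count.

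Antigen presentation genes were present in 9 of 22 cases (40.9%, beside 58.9% of protein-coding genes), with 3 in trace and 10 silent, and in 5 at 5 CPM. B2M, the light chain of class I molecules, stood at 342, 341 and 346 CPM and TAPBP (tapasin) at 87.5, 89.3 and 91.7. Of the heavy chains HLA-E stood at 7.88 ± 0.87 and HLA-C at 2.93 ± 0.568 CPM with HLA-B in trace at 0.448 ± 0.186, and counts of these similar and polymorphic genes are uncertain. MICB, a ligand of the NKG2D receptor of killer cells, stood at 51.5, 54.7 and 53.4 CPM and MICA at 5.72, 4.17 and 3.37. CIITA, which switches on class II genes, had 3, 1 and 1 counts, HLA-DRA had none, and CD274 (PD-L1) had 0, 1 and 1.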
